A study of Mus musculus with 6 samples.

Results

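The T cell receptor (TCR) segments described here are the beta variable (Trbv), beta diversity (Trbd), beta joining (Trbj) and alpha joining (Traj) genes of the mouse. Members were taken by symbol, with a value above 0 FPKM (fragments per kilobase of gene length, scaled to the size of the library) in at least 2 of the 6 libraries. By this rule 92 of the 18122 rows of the deposited table were members: 22 Trbv, 2 Trbd, 14 Trbj and 54 Traj segments. The other 8 segments with these prefixes (Trbv6, Trbv9, Trbv18, Traj51, Traj54, Traj55, Traj56 and Traj57) had at most 4 reads in any library and were left out. The Trbv, Trbd and Trbj genes lie on mouse chromosome 6 and the Traj genes on chromosome 14.

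A TCR beta gene is assembled in the thymus by V(D)J recombination, which joins a variable, a diversity and a joining segment, and the alpha gene is assembled in the same way from a Trav and a Traj segment without a diversity segment. The joined segments are spliced to a constant gene and stay fixed in the descendants of that cell, so in a population of T cells the segment levels bear on its receptor repertoire. Reads in a segment need not all come from joined receptor genes, which was not tested here. In these bulk libraries, fewer cells that use a segment and less receptor RNA per cell cannot be told apart. The beta joining segments form a Trbj1 cluster behind Trbd1 and a Trbj2 cluster behind Trbd2, and the Traj segments form a long array that is numbered towards the alpha constant gene, with Traj1 nearest to it.

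The cells were CD8+ T cells from lymph nodes of mice without Dusp2 (Dusp2-/-, called Dusp2KO here), a phosphatase that acts on MAP kinases, and of wild-type (WT) mice. Both genotypes were cultured for 18 h on plates coated with 1 µg/mL anti-CD3, with 1 µg/mL anti-CD28, 50 ng/mL IFN-α and 20 ng/mL IL-4, a mixture meant to induce virtual memory T cells. They were then sorted by the adhesion receptor CD44 into a very high (CD44hi) and a low (CD44lo) fraction. The groups were CD44hi Dusp2KO (2 libraries), CD44hi WT (2 libraries), CD44lo Dusp2KO (1 library) and CD44lo WT (1 library). A protocol text in the labels names mice with a floxed Rpa1 gene and Cd4-Cre in place of Dusp2-/- mice. The labels do not say which libraries share an animal or a culture, or give the age or sex of the mice, and every p-value reflects the spread among these libraries, which may be technical.

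Whole reads were recovered from the FPKM values, and came to 23342357 in CD44lo Dusp2KO and to between 42814537 and 55855124 in the other 5 libraries. Dusp2 had 0 and 3 reads in the CD44hi Dusp2KO libraries and 7197 and 9518 reads in the CD44hi WT libraries, with 0 reads in CD44lo Dusp2KO and 11811 reads in CD44lo WT, as the genotype labels state. Xist, the RNA that silences an X chromosome in female cells, was at 15.1 and 15.5 FPKM in the CD44hi Dusp2KO libraries, at 0.00641 and 0.00492 FPKM in the CD44hi WT libraries, at 0 FPKM in CD44lo Dusp2KO and at 0.00219 FPKM in CD44lo WT. The CD44hi Dusp2KO libraries stood apart from the other 4 in this gene, the CD44lo Dusp2KO library included, and its part in the segment differences was not tested. The CD8 T cell markers (Cd8a, Cd8b1 and Cd3e) summed to 682 to 1033 FPKM and Cd4 stayed at or under 0.0228 FPKM. The B cell list summed to 22.4 and 24.7 FPKM in CD44hi Dusp2KO and to 12.6 and 10.1 FPKM in CD44hi WT, with 2 of its 5 genes measured, nearly all of it from Cd79b, while Cd79a stayed at or under 0.379 FPKM. The other marker lists were summed as well: γδ T cell markers (5 of 6 genes measured) came to 2.55 to 5.91 FPKM, CD4 T cell markers (3 of 3) to 0.22 to 0.589 FPKM, NK and NKT cell markers (3 of 4) to 0 to 0.291 FPKM, myeloid markers (4 of 5) to 2.92 to 5.6 FPKM, and thymocyte markers (2 of 4) to 0 to 0.183 FPKM. Genes that cut or extend segments during recombination were near 0, with at most 2 reads of Rag1 and 14 reads of Dntt in any library.

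The joining segments that carry the differences described below are short, as their reference sequences show (coding strand, 5′ to 3′, GENCODE M21 transcripts on GRCm38). Capitals mark the first match, by the codons of the standard genetic code, to the joining motif that closes the third complementarity region, which reads phenylalanine (phenylalanine form) or tryptophan (tryptophan form), then glycine, any residue and glycine. These beta joining segments were called between the genotypes in CD44hi or, for Trbj2-7, had the second largest mean share:
Trbj1-2: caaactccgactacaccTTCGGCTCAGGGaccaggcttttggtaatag
Trbj1-5: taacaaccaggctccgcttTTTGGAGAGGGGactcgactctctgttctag
Trbj1-7: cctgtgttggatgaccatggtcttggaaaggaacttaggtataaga
Trbj2-3: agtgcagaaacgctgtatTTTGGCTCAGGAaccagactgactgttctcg
Trbj2-6: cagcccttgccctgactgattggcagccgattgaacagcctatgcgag
Trbj2-7: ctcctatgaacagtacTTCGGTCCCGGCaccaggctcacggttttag
The phenylalanine form was found in 11 of the 14 annotated Trbj segments (78.6%) and in 43 of the 60 annotated Traj segments (71.7%), and the tryptophan form in 0 of 14 Trbj and 3 of 60 Traj segments (5%), with 0 matches of either on the other strand. Both forms occurred together in 1 Traj segment, and 45 held either form. Trbj1-6, Trbj1-7 and Trbj2-6 held neither, and Trbj2-6 is annotated as a pseudogene. These alpha joining segments were called between the genotypes in CD44hi:
Traj49: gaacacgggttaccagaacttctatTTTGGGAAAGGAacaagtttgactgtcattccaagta
Traj26: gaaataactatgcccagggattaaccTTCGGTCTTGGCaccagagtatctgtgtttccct
Traj16: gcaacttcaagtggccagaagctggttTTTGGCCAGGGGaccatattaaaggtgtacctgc
Traj6: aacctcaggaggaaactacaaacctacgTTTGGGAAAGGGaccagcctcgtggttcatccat
Traj3: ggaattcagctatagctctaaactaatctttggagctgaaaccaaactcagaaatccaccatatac
Traj3 held neither form in these letters. The members of the prefix Trbj were 46 to 53 bases long and those of Traj 29 to 72 bases, against 335 to 566 bases for Trbv, so a read weighs far more in the FPKM of a joining segment. In a gene of 50 bases, 1 read was worth between 0.353 and 0.838 FPKM, the highest value in the CD44lo Dusp2KO library.

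The last 45 bases of Trbv12-2, which has the largest mean share, of the Trbv13 family, of Trbv15, called between the genotypes in CD44hi, and of Trbv20, called between the fractions, show how alike the Trbv13 members are where they meet the diversity segment. Capitals mark TGTGCCAGC, which starts with the codon of the conserved cysteine and was found there in 17 of the 35 annotated Trbv segments (48.6%) and on the other strand in 0:
Trbv12-2: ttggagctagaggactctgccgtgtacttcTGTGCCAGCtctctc
Trbv13-1: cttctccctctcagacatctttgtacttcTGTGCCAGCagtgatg
Trbv13-2: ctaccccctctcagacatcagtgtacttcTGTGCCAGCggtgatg
Trbv13-3: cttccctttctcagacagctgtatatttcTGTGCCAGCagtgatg
Trbv15: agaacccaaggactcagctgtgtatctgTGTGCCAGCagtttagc
Trbv20: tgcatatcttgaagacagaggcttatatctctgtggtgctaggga
Over 230 pairs of Trbv segments the median identity was 58.3%, and 6 pairs reached 80%, all within the Trbv12 or the Trbv13 family. Trbv13-2 and Trbv13-3 were 90.6% identical, Trbv13-1 and Trbv13-2 88.7%, and Trbv12-1 and Trbv12-2 88.3%. How the authors' counting divides reads between such copies is not given in the sources used here, so single values within these families are less certain than the family sum.

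Expression of the beta variable segments was spread over many genes in every library. The 22 Trbv members had 14718 to 17263 reads in 5 libraries and 7620 reads in CD44lo Dusp2KO. Their summed FPKM was 734 and 708 in CD44hi Dusp2KO, 869 and 724 in CD44hi WT, 818 in CD44lo Dusp2KO and 869 in CD44lo WT. The CD44hi genotypes overlapped, and a difference was not detectable with these libraries (log2 ratio -0.14, exact permutation test, two-sided, p = 0.667, with 0.333 the smallest value that 2 against 2 libraries allow). The 6 segments with the largest mean share were Trbv12-2 with 10.4% of the Trbv sum, Trbv16 with 9.71%, Trbv29 with 9.32%, Trbv3 with 8.32%, Trbv12-1 with 8.1% and Trbv13-2 with 7.89%. Neighbours in this order overlapped over the 6 libraries. Trbv12-2, for example, took 10.7% and 11.2% of the Trbv sum in CD44hi Dusp2KO, 10.9% and 10.9% in CD44hi WT, 9.02% in CD44lo Dusp2KO and 9.4% in CD44lo WT. Its share was lower in both CD44lo libraries than in all 4 CD44hi libraries, with exact 95% binomial intervals of its read share of 8.27% to 9.56% in CD44lo Dusp2KO and 8.85% to 9.72% in CD44lo WT, against intervals that start at 10.05% or above in the 4 CD44hi libraries. Such intervals, and floors of 3 reads given further on, cover counting error only, since reads without molecular identifiers are not independent molecules. In FPKM Trbv12-2 did not separate the fractions, at 81.7 in CD44lo WT against 78.8 and 79.3 in CD44hi Dusp2KO. The fraction test given further on did not call it (log2 fold change 0.09, limma adjusted p = 0.495). The pseudogenes Trbv24 and Trbv12-3 held at most 0.442% of the sum.

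**Figure D1:**
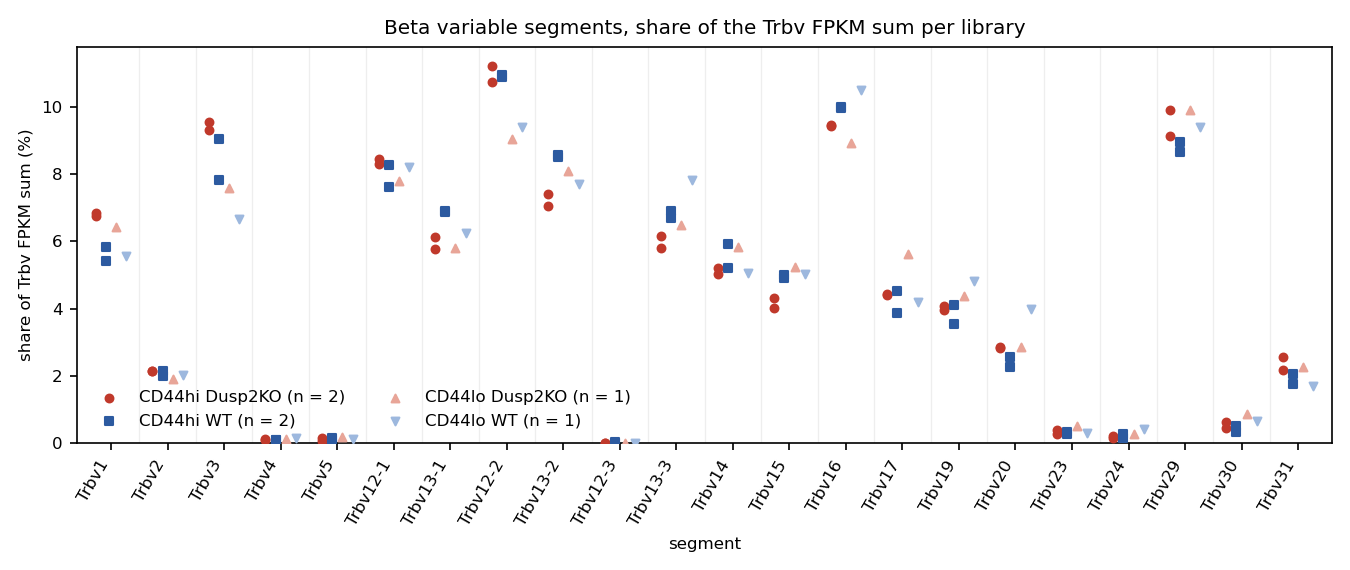
Share of the summed Trbv FPKM (%) taken by each of 22 beta variable segments in each library, in the order of the locus. Circles are CD44hi Dusp2KO, squares CD44hi WT, upward triangles CD44lo Dusp2KO and downward triangles CD44lo WT. The symbols of a segment lie close together, and Trbv12-2 leads with shares of 9.02% to 11.2%.

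Dusp2KO against WT in CD44hi cells was tested with limma on log2(FPKM + 1) over all 9691 genes that averaged 1 FPKM or more, with Benjamini-Hochberg adjustment at 0.05. Fold changes are on this scale, which understates changes of low genes. Of the 92 members, 64 passed the filter (20 Trbv, 2 Trbd, 13 Trbj and 29 Traj). The test called 14 of these 64, with 5 higher and 9 lower in Dusp2KO, and 50 did not pass it. The balance of directions rested on single libraries, with 13 higher and 9 lower without CD44hi WT replicate 1, and 5 higher and 23 lower without CD44hi WT replicate 2. Of all genes tested, 26.7% were called, 12.9% higher and 13.8% lower, so the count among the members stood near or under the background. Limma voom on the recovered reads called 5 members, and without the filter 0 were called (20 at an unadjusted p under 0.05).

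Among the beta variable segments 0 of the 20 tested were called higher in Dusp2KO and 3 were called lower. Trbv13-2, a segment of the Vβ8 group long used in mouse T cell work, was at 51.7 and 52.4 FPKM in CD44hi Dusp2KO and 74 and 62.1 FPKM in CD44hi WT. It fell in Dusp2KO (log2 fold change -0.37, SE 0.09, limma adjusted p = 0.0271), and was at 66.2 FPKM in CD44lo Dusp2KO and 67.1 FPKM in CD44lo WT. The genotypes did not overlap in CD44hi, and lay close together in CD44lo. Trbv13-1 averaged 42.8 ± 0.709 FPKM in Dusp2KO and 54.9 ± 7.07 FPKM in CD44hi WT (SD, n = 2 each; log2 fold change -0.35, SE 0.09, limma adjusted p = 0.0364). Trbv15 averaged 30 ± 2.2 FPKM in Dusp2KO and 39.4 ± 4.43 FPKM in CD44hi WT (SD, n = 2 each; log2 fold change -0.38, SE 0.09, limma adjusted p = 0.0289). Without CD44hi Dusp2KO replicate 2 none of the 3 was called, and without replicate 1 of that group Trbv13-1 and Trbv13-2 were not.

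Trbv13-3, the remaining member of that family, averaged 43.1 ± 2.87 FPKM in Dusp2KO and 54.2 ± 8.12 FPKM in CD44hi WT (SD, n = 2 each; limma adjusted p = 0.0721). The Trbv13 family together took 19% and 19.3% of the Trbv sum in CD44hi Dusp2KO, 22.3% and 22.1% in CD44hi WT, 20.4% in CD44lo Dusp2KO and 21.8% in CD44lo WT. The CD44hi genotypes did not overlap (exact permutation test, two-sided, p = 0.333, the smallest that 2 against 2 libraries allow). The Trbv12 family differed less, with 19.2% and 19.5% in CD44hi Dusp2KO, 18.5% and 19.2% in CD44hi WT, 16.8% in CD44lo Dusp2KO and 17.6% in CD44lo WT. In percentage points the mean share of Trbv13-2 moved most in CD44hi, at 7.22% in Dusp2KO against 8.54% in WT. Trbv1 stood at 6.8% in Dusp2KO against 5.63% in WT, and Trbv3 at 9.41% against 8.42%. Neither Trbv1 (log2 fold change 0.13, limma adjusted p = 0.225) nor Trbv3 (0.02, adjusted p = 0.913) passed the test on FPKM.

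The diversity segments are 12 and 14 bases long and rested on few reads. Trbd1 had 10 and 18 reads in CD44hi Dusp2KO, 19 and 27 reads in CD44hi WT, 10 reads in CD44lo Dusp2KO and 23 reads in CD44lo WT. In FPKM these were 14.7 and 28.4 in CD44hi Dusp2KO and 36.4 and 39.7 in CD44hi WT, a fall in Dusp2KO that lay just past the threshold (log2 fold change -0.86, SE 0.26, limma adjusted p = 0.0495). The call ended without either CD44hi WT library. Trbd2 had 6 and 5 reads in CD44hi Dusp2KO, 10 and 5 reads in CD44hi WT, 10 reads in CD44lo Dusp2KO and 8 reads in CD44lo WT, and the groups overlapped (log2 fold change -0.47, SE 0.35, limma adjusted p = 0.356).

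Trbj2-6 had the highest level of the beta joining segments in every library, although it is annotated as a pseudogene and holds no match to the joining motif. It took 26.3% and 28.3% of the Trbj sum in CD44hi Dusp2KO, 31% and 37.4% in CD44hi WT, 44.2% in CD44lo Dusp2KO and 36.8% in CD44lo WT. Its level fell in CD44hi Dusp2KO, at 96.3 and 91 FPKM, against 128 and 126 FPKM in CD44hi WT (log2 fold change -0.43, SE 0.07, limma adjusted p = 0.00697), and was 143 FPKM in CD44lo Dusp2KO and 142 FPKM in CD44lo WT. The call ended without CD44hi Dusp2KO replicate 2. The genotypes were separate in CD44hi and nearly equal in CD44lo. Trbj2-7 came next with a mean share of 15.9%, at 62.7 and 40.6 FPKM in CD44hi Dusp2KO, 73.4 and 54.5 FPKM in CD44hi WT, 45.5 FPKM in CD44lo Dusp2KO and 68.9 FPKM in CD44lo WT. The CD44hi genotypes overlapped for Trbj2-7. The following segments by mean share were Trbj1-5 with 7.39%, Trbj2-3 with 5.91%, Trbj2-1 with 5.83% and Trbj2-2 with 5.8%, of which the last 3 lay within the spread between libraries of each other. All 14 Trbj members together had 834 to 1016 reads in 5 libraries and 375 in CD44lo Dusp2KO, and summed to 366 and 322 FPKM in CD44hi Dusp2KO and 413 and 336 FPKM in CD44hi WT, which overlapped (exact permutation test, two-sided, p = 0.667).

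**Figure D2:**
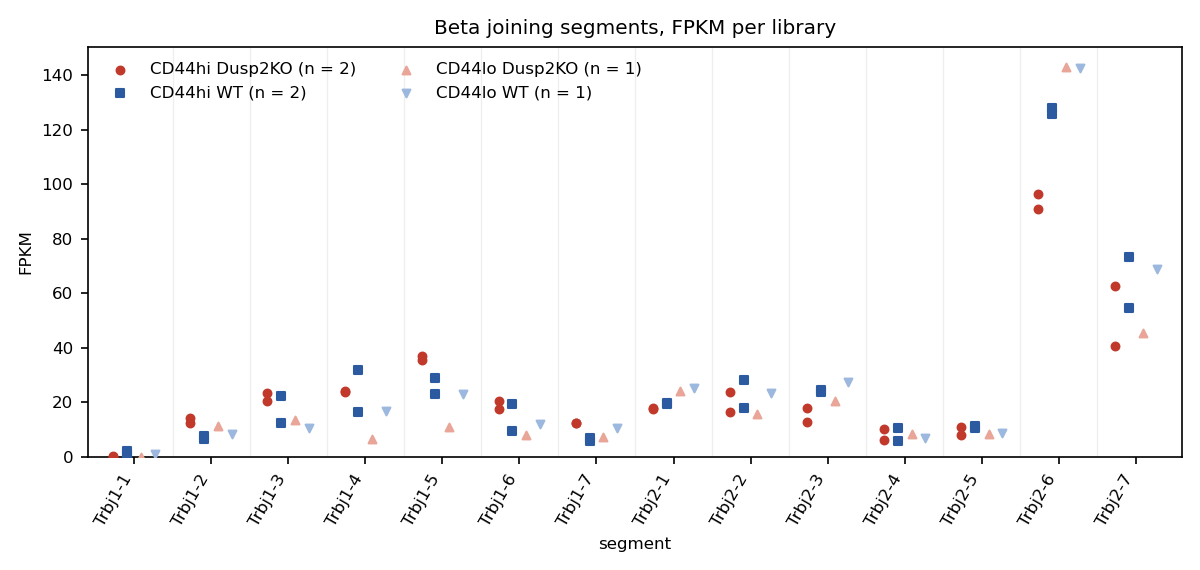
FPKM of the 14 beta joining segments in each library, in the order of the locus. Circles are CD44hi Dusp2KO, squares CD44hi WT, upward triangles CD44lo Dusp2KO and downward triangles CD44lo WT. Trbj2-6 stands highest in all 6 libraries, and the Trbj1-2, Trbj1-5 and Trbj1-7 circles lie above the squares.

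In CD44hi cells 3 of the 13 tested Trbj segments rose in Dusp2KO and 2 fell, against 12.9% and 13.8% of all genes tested. The 3 that rose are all in the Trbj1 cluster, and no other segment of that cluster was called. Trbj1-3, Trbj1-4 and Trbj1-6 overlapped between the genotypes in CD44hi. Their log2 fold changes were 0.36, 0.05 and 0.44, so Trbj1-3 and Trbj1-6 had higher means in Dusp2KO without a call. Trbj1-1, under the filter, averaged 0.197 FPKM in Dusp2KO and 1.75 FPKM in CD44hi WT. Trbj1-2 was at 12.5 and 14.2 FPKM in CD44hi Dusp2KO, 6.71 and 7.72 FPKM in CD44hi WT, 11.4 FPKM in CD44lo Dusp2KO and 8.59 FPKM in CD44lo WT (log2 fold change in CD44hi 0.80, SE 0.09, limma adjusted p = 0.00352). Trbj1-5 was at 37.1 and 35.6 FPKM in CD44hi Dusp2KO, 29 and 22.9 FPKM in CD44hi WT, 10.9 FPKM in CD44lo Dusp2KO and 23.2 FPKM in CD44lo WT (log2 fold change in CD44hi 0.48, SE 0.11, limma adjusted p = 0.0226). Trbj1-7 was at 12.7 and 12.3 FPKM in CD44hi Dusp2KO, 6 and 6.91 FPKM in CD44hi WT, 7.29 FPKM in CD44lo Dusp2KO and 10.7 FPKM in CD44lo WT (log2 fold change in CD44hi 0.86, SE 0.08, limma adjusted p = 0.00194). Both Dusp2KO libraries thus lay above both WT libraries for these 3 segments in CD44hi, while in CD44lo Trbj1-5 and Trbj1-7 were lower in Dusp2KO. Trbj2-3 averaged 15.4 ± 3.73 FPKM in Dusp2KO and 24.2 ± 0.399 FPKM in CD44hi WT (SD, n = 2 each), and fell (log2 fold change -0.64, SE 0.14, limma adjusted p = 0.0215). Limma voom on reads called none of these Trbj segments, with adjusted p between 0.0628 for Trbj2-6 and 0.15 for Trbj1-5.

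Summed by cluster, Trbj1 segments took 35.5% and 38.7% of the Trbj FPKM in CD44hi Dusp2KO, 28.6% and 23% in CD44hi WT, 17.7% in CD44lo Dusp2KO and 21.6% in CD44lo WT. The CD44hi Dusp2KO libraries were the highest of the 6 and the CD44lo Dusp2KO library was the lowest. As shares of reads, the exact 95% binomial intervals were 33.4% to 39.4% and 36.1% to 42.9% in CD44hi Dusp2KO, 26.5% to 32.6% and 20.9% to 26.5% in CD44hi WT, 14.4% to 22.4% in CD44lo Dusp2KO and 19.5% to 24.9% in CD44lo WT. With 2 libraries per genotype the CD44hi difference could not reach a p below 0.333 in the exact permutation test, and had that p. The Trbj1 cluster summed to 130 and 125 FPKM in CD44hi Dusp2KO against 118 and 77.3 FPKM in CD44hi WT, and the Trbj2 cluster to 236 and 197 FPKM in CD44hi Dusp2KO against 295 and 259 FPKM in CD44hi WT.

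The alpha joining segments rested on few reads. The 54 Traj members together had 249 and 228 reads in CD44hi Dusp2KO, 338 and 224 reads in CD44hi WT, 57 reads in CD44lo Dusp2KO and 254 reads in CD44lo WT. Their FPKM summed to 76.8 and 74.6 in CD44hi Dusp2KO, 143 and 68.7 in CD44hi WT, 43.1 in CD44lo Dusp2KO and 92.8 in CD44lo WT. CD44hi WT replicate 1 stood above all others and the CD44hi genotypes overlapped (log2 ratio -0.49, exact permutation test, two-sided, p = 1.000), and without that library the ratio turned to 0.14. Traj1, a pseudogene of 29 bases and the shortest member of its prefix, had the largest mean share of the FPKM sum, 12%, at 7.3 and 6.52 FPKM in CD44hi Dusp2KO, 23.8 and 6.69 FPKM in CD44hi WT, 5.78 FPKM in CD44lo Dusp2KO and 12.9 FPKM in CD44lo WT. In reads, which are not divided by length, Traj1 held 4.39% to 8.88% and Traj2, of 66 bases, 0% to 9.65% of the Traj reads of a library. By FPKM share Traj2 followed with 5.28%, Traj4 with 4.61%, Traj6 with 4.12%, Traj7 with 3.76% and Traj39 with 3.24%, and 5 of these 6 leading segments lie at the constant-gene end of the array. Traj1 to Traj30 held 63.3% and 72% of the Traj sum in CD44hi Dusp2KO, 81.1% and 69.9% in CD44hi WT, 67.4% in CD44lo Dusp2KO and 73.5% in CD44lo WT, so the genotypes overlapped in CD44hi.

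**Figure D3:**
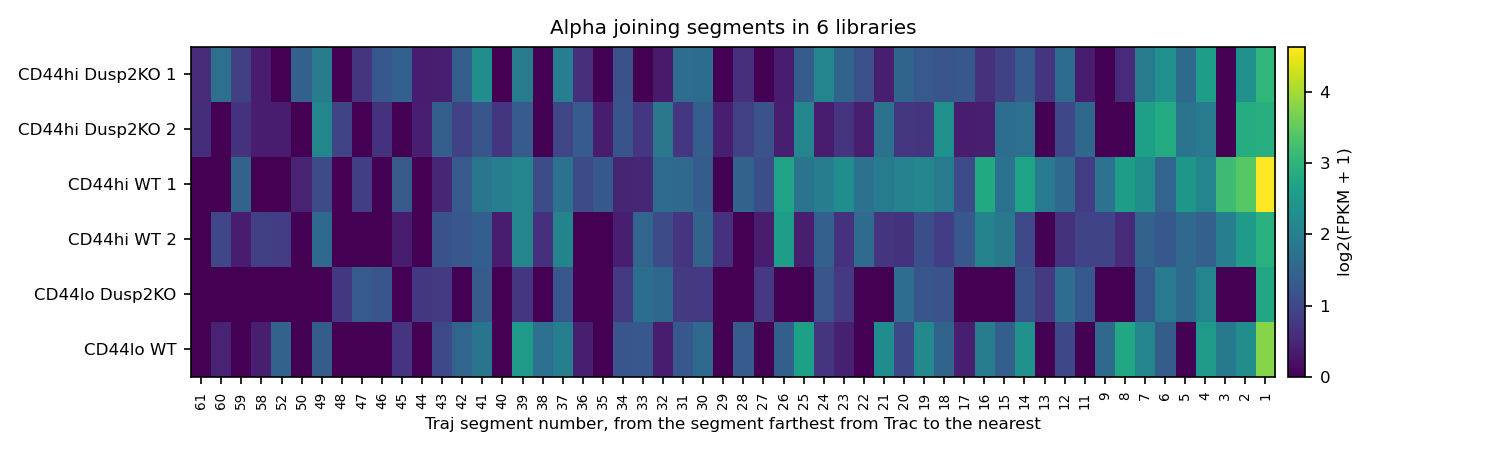
Level of the 54 alpha joining segments as log2(FPKM + 1), by segment number from Traj61 on the left to Traj1 on the right, in the 6 libraries from top to bottom. Traj3, Traj16 and Traj26 are dark in the Dusp2KO libraries, where they have 0 to 2 reads each, and brighter in the WT libraries, where they have 5 to 23.

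Of the 29 Traj segments tested in CD44hi, 3 fell and 2 rose in Dusp2KO. The 3 that fell, Traj3, Traj16 and Traj26, averaged under 1 FPKM over the Dusp2KO libraries and passed the filter through the WT libraries, so being tested already required a higher level in WT. Without the filter their adjusted p in limma were 0.104 for Traj3, 0.0938 for Traj16 and 0.0527 for Traj26. Traj3 had 0 and 0 reads in CD44hi Dusp2KO, 23 and 11 reads in CD44hi WT, 0 reads in CD44lo Dusp2KO and 9 reads in CD44lo WT. In FPKM this was 0 and 0 in CD44hi Dusp2KO against 8.01 and 2.94 in CD44hi WT, at least 6.59-fold lower against a floor of 3 reads per library, which stands at 0.802 and 0.859 FPKM in CD44hi Dusp2KO and at 1.9 FPKM in CD44lo Dusp2KO (limma adjusted p = 0.00474). That bound was 3.54-fold without CD44hi WT replicate 1 and 9.64-fold without replicate 2. Every WT library had Traj3 reads and none of the Dusp2KO libraries did, but in CD44lo Dusp2KO 57 Traj reads in all allow a Traj3 share of up to 6.27% (exact 95% binomial bound), more than the 3.54% of reads seen in CD44lo WT. Traj26 had 1 and 1 reads in CD44hi Dusp2KO, 14 and 17 reads in CD44hi WT, 0 reads in CD44lo Dusp2KO and 5 reads in CD44lo WT. Its read ratio in CD44hi was 0.059 with an exact 95% counting interval of 0.00684 to 0.232, and it averaged 0.305 ± 0.0148 FPKM in Dusp2KO and 5.18 ± 0.257 FPKM in WT (SD, n = 2 each; log2 fold change -2.24, SE 0.10, limma adjusted p = 0.000147). Traj16 had 2 and 1 reads in CD44hi Dusp2KO, 16 and 11 reads in CD44hi WT, 0 reads in CD44lo Dusp2KO and 9 reads in CD44lo WT. Its read ratio in CD44hi was 0.102, with an interval of 0.0197 to 0.33 (log2 fold change -1.91, SE 0.24, limma adjusted p = 0.00395). In CD44hi both WT libraries lay above both Dusp2KO libraries for all 3 segments. In CD44lo the depth could not show such a separation, since 0 of 57 reads allow the same share of up to 6.27% for Traj16 and Traj26, against 3.54% of reads for Traj16 and 1.97% for Traj26 in CD44lo WT.

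Traj6 and Traj49 rose in CD44hi Dusp2KO. Traj6 had 14 and 20 reads in CD44hi Dusp2KO, 5 and 5 reads in CD44hi WT, 4 reads in CD44lo Dusp2KO and 5 reads in CD44lo WT, which gave 3.99 and 6.1 FPKM in CD44hi Dusp2KO against 1.85 and 1.42 FPKM in CD44hi WT (log2 fold change 1.18, SE 0.18, limma adjusted p = 0.00644). Its read ratio of 3.11 had a counting interval of 1.5 to 7.06. Traj49 had 10 and 11 reads in CD44hi Dusp2KO, 3 and 7 reads in CD44hi WT, 0 reads in CD44lo Dusp2KO and 5 reads in CD44lo WT (log2 fold change in CD44hi 0.70, SE 0.17, limma adjusted p = 0.0287). The counting interval of its read ratio, 0.865 to 4.57, includes no change, and the call ended without CD44hi Dusp2KO replicate 2. Limma voom on reads called Traj3, Traj16, Traj26 and Traj6, and of the beta segments Trbv13-2. The median log2 fold change of the 29 tested Traj segments was -0.33, against -0.02 over all genes tested. Of these 29, 7 averaged under 1 FPKM in the Dusp2KO libraries and at least 1 FPKM in the WT libraries, Traj3, Traj16 and Traj26 among them, and 0 the reverse, so the filter itself admitted segments that were lower in Dusp2KO. The median of the 20 Trbv segments was -0.07 and that of the 13 Trbj segments 0.01.

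Few segments were listed at 0 in all libraries of a genotype. Traj3, Traj9 and Traj38 were at 0 in all 3 Dusp2KO libraries and above 0 in all 3 WT libraries, as were 53 rows of the whole table (0.292%). Traj9 had 6 and 3 reads in CD44hi WT and 6 reads in CD44lo WT, and Traj38 had 3 and 2 reads in CD44hi WT and 7 reads in CD44lo WT, both averaging under 1 FPKM and so untested. Traj44 and Traj46 showed the reverse, as did 23 rows of the table (0.127%), and Traj46 had 5 and 2 reads in CD44hi Dusp2KO and 2 reads in CD44lo Dusp2KO, while Traj44 had 1 read in each of these libraries. All of these counts but those of Traj3 stood near the floor of 3 reads in some library. The joining segments of the invariant alpha chains of NKT and MAIT cells, Traj18 and Traj33, were low in all groups. Traj18 had 5 and 14 reads in CD44hi Dusp2KO, 8 and 3 reads in CD44hi WT, 2 reads in CD44lo Dusp2KO and 6 reads in CD44lo WT, with no difference called (log2 fold change 0.39, limma adjusted p = 0.536). Traj33 had 0 and 2 reads in CD44hi Dusp2KO, 1 and 6 reads in CD44hi WT, 3 reads in CD44lo Dusp2KO and 4 reads in CD44lo WT (limma adjusted p = 0.231).

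To set the segment shares against each other, the distance between libraries was taken as the summed absolute difference of these shares divided by 2, which is 0% for equal shares and 100% for no segment in common. For Trbv it was 4.63% to 5.75% over the 4 pairs of a Dusp2KO and a CD44hi WT library, 2.14% between the CD44hi Dusp2KO replicates and 3.09% between the CD44hi WT replicates. The Trbv genotype distance thus exceeded the replicate distances, but stayed small. For Trbj it was 9.28% to 17.4% between the genotypes, 7.54% between the Dusp2KO and 10.9% between the WT replicates, so the 2 ranges overlapped. For Traj it was 36.6% to 42.5% between the genotypes, 37.7% between the Dusp2KO and 31.1% between the WT replicates, which also overlapped and rested on 224 to 338 reads over 54 segments. The Trbj and Traj shares include the pseudogenes Trbj2-6 and Traj1, which had the largest mean shares of their prefixes, so these distances are not those of functional receptor chains alone.

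The Trav genes, the alpha variable segments, were measured in the same libraries with 103 members by the same rule and 3246 to 5661 reads. Their genotype distance in CD44hi was 46.1% to 48.1%, against 10.7% and 11.4% between replicates. The spread was also set against counting error, as the chi-square of the recovered reads per degree of freedom, which is near 1 where reads differ by counting error alone. Between genotypes in CD44hi it was 5.39 to 6.27 for Trbv and 27.7 to 29.3 for Trav, and between replicates 1.41 and 3.28 for Trbv and 2.49 and 2.53 for Trav. For Trbj it was 2.54 to 5.18 between genotypes and 1.39 and 2.21 between replicates, and for Traj 2.32 to 2.84 between genotypes and 2.15 and 1.79 between replicates. The levels of 45 of 61 tested Trav segments differed by genotype in the same limma test in CD44hi (22 higher and 23 lower in Dusp2KO). That test called 3 of 20 Trbv, 5 of 13 Trbj and 5 of 29 Traj segments, and 26.7% of all genes tested. The Trbv and Traj counts stood under that share. The beta and the alpha variable segments thus gave unlike distances in these libraries, a description for which no test over samples was run. Sequence identity was not compared among the Trav genes, and how reads were divided between any alike copies was not tested.

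**Figure D4:**
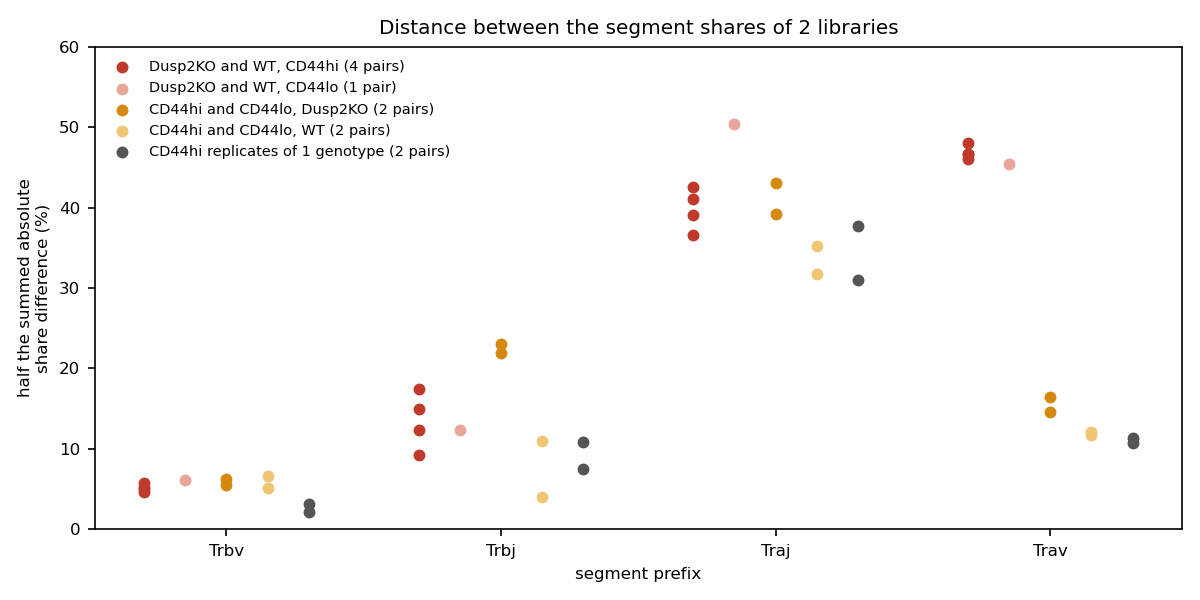
Distance between the segment shares of 2 libraries (%), for Trbv, Trbj, Traj and Trav, by kind of pair. Each point is a pair of libraries. Trbv pairs of different genotype in CD44hi lie at 4.63% to 5.75% and Trav pairs at 46.1% to 48.1%, while the CD44hi replicates of Trav lie at 10.7% and 11.4%.

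**Figure D5:**
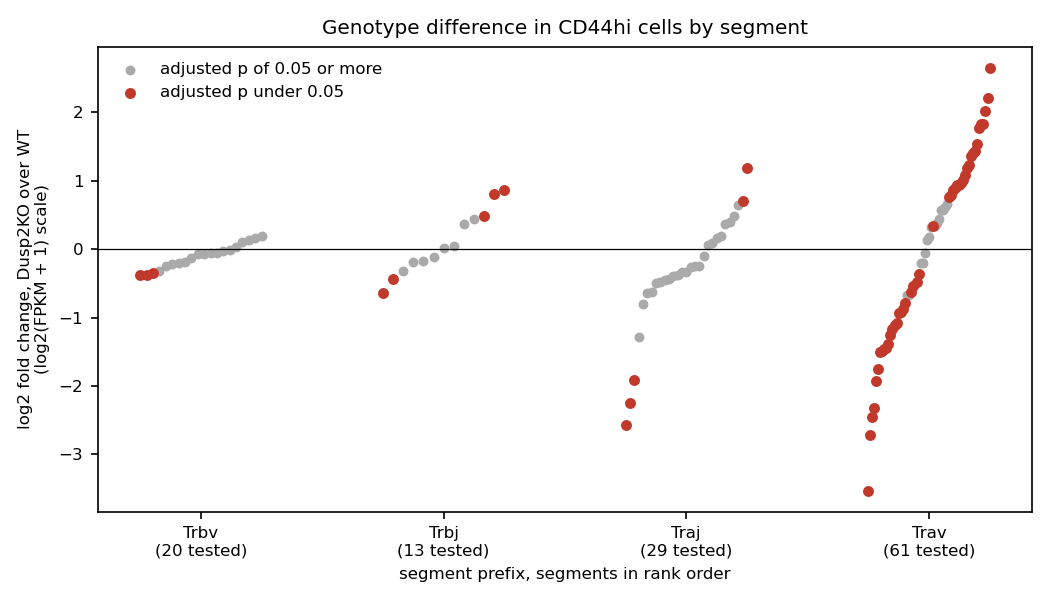
Log2 fold change (Dusp2KO over WT, CD44hi, on log2(FPKM + 1)) of each tested segment, in rank order within its prefix. Red points have a limma adjusted p under 0.05 and grey points do not. The 20 Trbv points lie between -0.38 and 0.19, and the 61 Trav points between -3.53 and 2.64.

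With 1 library per genotype, the CD44lo fraction has no replicate check. The Trbv distance between CD44lo Dusp2KO and CD44lo WT was 6.06%, that of Trbj 12.4%, that of Traj 50.5% and that of Trav 45.4%. Of the 64 tested members, 3 were at least 2-fold higher in CD44lo Dusp2KO on the log2(FPKM + 1) scale (Trbd2, Traj5 and Traj32), against 0.795% of all genes tested, and 15 were at least 2-fold lower, against 0.887%. Of those 15, 13 were Traj segments and 2 were Trbj1-4 and Trbj1-5. Among the Traj segments, Traj3, Traj8, Traj16, Traj21, Traj26 and Traj42 passed the filter through the WT libraries. For these, being tested already required a higher level in WT. CD44lo Dusp2KO had 57 Traj reads in all, against 254 in CD44lo WT. With this filter and depth, the count of 15 cannot be read as an excess over the 0.887%. The 3 higher segments had 10 (Trbd2), 3 (Traj5) and 3 (Traj32) reads in CD44lo Dusp2KO, against 8, 0 and 1 in CD44lo WT. At such counts the 3 cannot be read as an excess over the 0.795% either. Trbj1-4 had 8 reads in CD44lo Dusp2KO and 44 reads in CD44lo WT, in libraries with 375 and 958 Trbj reads. Traj2 had 0 reads in CD44lo Dusp2KO and 13 reads in CD44lo WT. No Trbv segment was among them.

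Adjusted for the sorted fraction over all 6 libraries, 6 of the 64 members were called between the genotypes, against 10.4% of all genes tested (5.23% higher and 5.17% lower in Dusp2KO). Traj26 (log2 fold change -1.96), Traj16 (-1.93) and Traj3 (-2.34) were lower in Dusp2KO, with limma adjusted p of 0.00139, 0.002 and 0.00529. Trbj2-3 was also lower (-0.57, adjusted p = 0.0331). Trbj1-2 (0.66, adjusted p = 0.0171) and Traj6 (0.96, adjusted p = 0.0219) were higher. These libraries include those of the CD44hi comparison, so the values are not independent of it. The calls of Traj3, Traj16 and Traj26 held with each library left out in turn, whereas Trbj2-3 and Traj6 lost theirs without CD44hi Dusp2KO replicate 2 or either CD44hi WT library, and Trbj1-2 without any of the 4 CD44hi libraries. Without either CD44lo library, such a fit gives the genotype difference of the CD44hi comparison itself. Each of these fits kept the filter set on all 6 libraries, which Traj3, Traj16 and Traj26 passed through the WT libraries. That their calls held is therefore not separate support. Without the filter their limma adjusted p were 0.0564 for Traj3, 0.037 for Traj16 and 0.0294 for Traj26. Limma voom on reads called 3 members.

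CD44hi against CD44lo, adjusted for genotype, gave 10 calls among the 64 members, against 27.4% of all genes tested (16.6% higher and 10.8% lower in CD44hi). Among the 10 calls 4 were higher and 6 lower in CD44hi, and this balance too rested on single libraries, with 13 higher and 7 lower without CD44lo WT and 0 higher and 5 lower without CD44hi WT replicate 1. Of the Trbv segments 4 were lower in CD44hi and 0 higher. Trbv20 was at 20.8 and 20.3 FPKM in CD44hi Dusp2KO, 19.7 and 18.5 FPKM in CD44hi WT, 23.3 FPKM in CD44lo Dusp2KO and 34.8 FPKM in CD44lo WT (log2 fold change -0.50, SE 0.14, limma adjusted p = 0.0365), and CD44lo WT stood highest. Trbv19 was at 29.1 and 28.8 FPKM in CD44hi Dusp2KO, 30.8 and 29.8 FPKM in CD44hi WT, 35.8 FPKM in CD44lo Dusp2KO and 41.9 FPKM in CD44lo WT (-0.37, SE 0.07, limma adjusted p = 0.00961). Both CD44lo libraries lay above all 4 CD44hi libraries for Trbv19. Trbv24, a pseudogene, and Trbv30 differed by -0.64 and -0.67, at limma adjusted p of 0.0217 and 0.0382, from 18 to 67 and 46 to 97 reads per library. The Trbj segments Trbj2-1 (-0.38, adjusted p = 0.00707) and Trbj2-6 (-0.39, adjusted p = 0.0365) were lower and Trbj1-4 (1.07, adjusted p = 0.0447) higher in CD44hi. Trbv19 and Trbj2-1 were called with each library left out in turn. The calls of Trbv20, Trbv24 and Trbv30 ended without CD44hi Dusp2KO replicate 2, without CD44lo WT and without at least 1 CD44hi WT library, that of Trbv30 also without CD44lo Dusp2KO, and those of Trbj1-4 and Trbj2-6 without either CD44hi Dusp2KO library, CD44lo Dusp2KO or CD44hi WT replicate 1.

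Of the Traj segments, Traj26 (0.81, limma adjusted p = 0.0163), Traj15 (0.85, adjusted p = 0.0479) and Traj2 (1.65, adjusted p = 0.0275) were higher in CD44hi. Traj15 and Traj2 had 0 reads in CD44lo Dusp2KO, and without that library neither was called. All 3 calls ended without CD44hi WT replicate 1, and that of Traj15 also without replicate 2. Limma voom on reads called Trbv19 and Trbv20 alone. The distance between fractions was 5.46% and 6.24% for Trbv in Dusp2KO and 6.61% and 5.15% in WT. For Trbj it was 23% and 21.9% in Dusp2KO and 11% and 4.03% in WT, so the Dusp2KO fractions lay farther apart in their joining segments. CD44hi Dusp2KO and CD44lo also differed in Xist, as given above, and the WT fractions did not.

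The interaction asks whether the genotype difference was unlike in the 2 fractions, and called 5 of the 64 members, 4 above and 1 below 0, against 4.22% of all genes tested (2.73% above and 1.49% below). Trbj1-5, at 1.50 (SE 0.19, limma adjusted p = 0.027), was higher in Dusp2KO in CD44hi and lower in CD44lo. Trbj1-7 (1.35, SE 0.14, adjusted p = 0.0251) and Traj49 (2.07, SE 0.30, adjusted p = 0.0324) showed the same signs in the 2 fractions. Trbv20 (0.66, SE 0.11, adjusted p = 0.0397) was 0.56 log2 units lower in Dusp2KO in CD44lo and did not differ by the test in CD44hi. Traj26 (-0.85, SE 0.17, adjusted p = 0.0482) had a lower value in Dusp2KO in both fractions, but which fraction had the larger difference turned with the pseudocount: with 0.1 in place of 1 the interaction was 0.41 (adjusted p = 0.45). The CD44lo differences of Traj26 and Traj49 set 0 reads against 5 each, so their size is set by the pseudocount. The call of Trbv20 ended without CD44hi Dusp2KO replicate 1, and that of Traj26 without either CD44hi Dusp2KO library. The CD44lo values are single libraries, assumed to vary like the CD44hi pairs, and limma voom on reads called 0 of the 64 (7 at an unadjusted p under 0.05). CD44hi and CD44lo Dusp2KO also differed in Xist, as given above, and its part in the interaction was not tested.

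The partner genes of the receptor were set beside the segments. Trbc2, a beta constant gene, fell to 510 and 541 FPKM in CD44hi Dusp2KO, against 700 and 706 FPKM in CD44hi WT (log2 fold change -0.42, SE 0.09, limma adjusted p = 0.0195), and was at 796 FPKM in CD44lo Dusp2KO and 722 FPKM in CD44lo WT. The summed Trbv FPKM per 100 FPKM of Trbc2 was 144 and 131 in CD44hi Dusp2KO, 124 and 103 in CD44hi WT, 103 in CD44lo Dusp2KO and 120 in CD44lo WT. Trbc1, the other beta constant gene, is not part of this ratio. The ratio thus sets all Trbv members against only a part of the beta constant RNA. Of the 4 CD3 chains, which carry the receptor to the surface and signal for it, 3 fell in CD44hi Dusp2KO and 1 rose. Cd3e averaged 52.6 ± 1.31 FPKM in Dusp2KO and 82.7 ± 8.29 FPKM in CD44hi WT (SD, n = 2 each; log2 fold change -0.64, limma adjusted p = 0.00433). Cd3d (-0.40, adjusted p = 0.0136) and Cd3g (-0.45, adjusted p = 0.00806) also fell, while Cd247, the zeta chain, rose (0.38, adjusted p = 0.0076). Trac, Trbc1, Rag2 and Ptcra were not analysed here.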

How the data were processed

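The authors deposited FPKM values per gene for 6 bulk RNA-seq libraries. The submitters' processing notes name HISAT2 2.0.5 and the builds mm39 and hg38, without saying which build served for what. For counter and annotation, nothing is given in the sources used here. The labels also name 10X Genomics. No coordinates are printed, because the reference used for names, lengths and sequences (GENCODE M21) is on GRCm38. The FPKM of all 18122 rows (100%) were whole reads within 1e-06 reads, 16642 (91.8%) at the GENCODE length, so read totals, shares and intervals rest on recovered reads.

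The main test was limma 3.58.1 (R 4.3.3) with a variance trend on log2(FPKM + 1), where 1 is the pseudocount, over the 9691 genes that averaged 1 FPKM or more, two-sided, adjusted over all of them. Separate group means (2 residual degrees of freedom) gave the CD44hi and interaction contrasts, and an additive model (3 degrees of freedom) the others. The test was checked on simulated data. Named were the 6 largest mean shares per prefix, up to 6 calls per direction, all Trbd segments, the 3 largest share differences, Traj18, Traj33 and fixed partner genes. The members, lists and rules were chosen with earlier results of these data known. Traj9, Traj38, Traj44, Traj46 and the library checks such as Xist were chosen after their values were seen. Of all per-sample columns, 0 were unused. Single values used exact permutation tests. Alternatives were other pseudocounts, filters, scaling, a replicate block, a fit without the trend, voom on reads and each library left out.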

Additional observations from a re-analysis of the deposited data

Results flagged for a closer look

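The genotype difference was called unlike in the CD44hi and CD44lo fractions, by the interaction test in limma, for 5 segments. Limma voom on reads and the fit without the filter each called 0 members. Xist was at 15.1 and 15.5 FPKM in CD44hi Dusp2KO and at 0 FPKM in CD44lo Dusp2KO, and its part in the interaction was not tested. Trbj1-5 had an interaction of 1.50, Trbj1-7 of 1.35, Traj49 of 2.07, Trbv20 of 0.66 and Traj26 of -0.85, all in log2 units on log2(FPKM + 1), as the difference of Dusp2KO and WT in CD44hi minus that in CD44lo. The difference of Dusp2KO and WT was 0.48 in CD44hi and -1.02 in CD44lo for Trbj1-5, 0.86 in CD44hi and -0.49 in CD44lo for Trbj1-7, 0.70 in CD44hi and -1.37 in CD44lo for Traj49, 0.10 in CD44hi and -0.56 in CD44lo for Trbv20, and -2.24 in CD44hi and -1.40 in CD44lo for Traj26. In CD44lo Dusp2KO these rested on 13 reads of Trbj1-5, 8 of Trbj1-7, 0 of Traj49, 186 of Trbv20 and 0 of Traj26, against 59, 25, 5, 593 and 5 reads in CD44lo WT. The CD44lo values of Traj49 and Traj26 thus depend on the pseudocount of 1, and with 0.1 the interaction of Traj26 had the opposite sign, at 0.41, while that of Traj49 was 5.08.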

How the results depend on the processing

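Of 429 alternative values for single called segments, 311 kept their direction and call, 117 kept the direction without the call, and 1 turned: the Traj26 interaction was 0.41 with a pseudocount of 0.1. The tally includes fits of the CD44hi contrast without a CD44lo library, where the fold change cannot change. It is therefore no measure of how firm the calls are. For Dusp2KO against WT in CD44hi, 14 of 64 members and 2586 of 9691 genes were called. Without the filter on low values 0 of 92 members and 2 of 18122 genes were called, and 20 members had an unadjusted p under 0.05. A minimum of 5 FPKM gave 9 of 32 members and 2037 of 6421 genes, and voom on reads 5 of 64 and 2926 of 9691. The counts also moved with a CD44hi library left out. In the next counts, all genes called stand in brackets. Adjusted for fraction, 6 members (1008) became 2 (318) without the filter, 2 (728) with 5 FPKM and 3 (1171) by voom. The count of members also moved with a CD44hi library left out, and without either CD44lo library this fit gives the CD44hi comparison itself. For CD44hi against CD44lo, 10 members (2655) became 2 (2089) without the filter, 6 (1868) with 5 FPKM and 2 (2544) by voom. This count of members also moved with a library left out. For the interaction, 5 became 9 with a pseudocount of 0.1, 0 without the filter (12 at an unadjusted p under 0.05), 3 with 5 FPKM, 9 with median-ratio scaling, 0 by voom (7 at an unadjusted p under 0.05) and 14 to 22 with a CD44hi library left out. It could not be fitted without either CD44lo library.

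Over segments with a mean of at least 1 FPKM the mean genotype distance in CD44hi was 35.3% for Traj (39.8% over all members) and 45.4% for Trav (46.9%). Leaving out a library put the log2 ratio of the summed FPKM, Dusp2KO over WT in CD44hi, between -0.26 and 0.033 for Trbj and between -0.92 and 0.14 for Traj, with the positive values without CD44hi WT replicate 1. The deviations of replicate 1 from its group mean were nearly uncorrelated between the genotypes in CD44hi (correlation 0.02). This single value cannot show whether libraries of the same replicate number share a culture or an animal. A replicate block called 28 members in CD44hi and 26 in the interaction. The causes were not tested. Depth limits the Trbd segments, at 16 to 32 reads a library, and the Traj segments, at 57 to 338.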
